A study of Rattus norvegicus with 8 samples.

Results

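The MHC class II genes of the rat and their transactivator Ciita were followed in vein grafts and control veins. The 10 genes were taken by name from the deposited count table and all 10 have a row there, among 37209 rows in all. They are the classical chains RT1-Da, RT1-Db1, RT1-Ba and RT1-Bb, the chaperone chains RT1-DMa, RT1-DMb, RT1-DOa and RT1-DOb, the invariant chain Cd74, and Ciita. RNA came from 8 veins of Sprague Dawley rats, an outbred strain, collected 1 week after surgery. The graft group held 4 veins that had been placed, over cuffs, into the divided left common carotid artery and so carried arterial blood. The control group held 4 jugular veins of the animals' other side. The labels name no transgene and no drug treatment, and they give no age for the rats.

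MHC class II molecules are pairs of an alpha and a beta chain that present peptides from the endosomal pathway to CD4+ helper T cells. The invariant chain, encoded by Cd74, fills their groove until proteases degrade it, and DM then exchanges its last fragment for a peptide, a step that DO restrains. In humans the counterparts are HLA-DR for RT1-D, HLA-DQ for RT1-B, HLA-DM and HLA-DO. Dendritic cells, B cells and macrophages make class II, and other cells, endothelium among them, can make it after exposure to interferon gamma. Ciita does not bind DNA itself. It docks on a complex of RFX, CREB and NF-Y factors at a conserved promoter module, the X and Y boxes, which class II chain genes and Cd74 share.

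The promoters are shown because the genes described below are known to be controlled through this module. RefSeq promoter sequences on GRCr8, from 250 bases before to 50 bases after each gene's start, were found for 8 of the 10 genes (RT1-DMb and Ciita were not matched). Each line gives 60 bases 5′ to 3′ on the gene's own strand. Capitals mark ATTGG, which is the Y box core CCAAT on the other strand, and ACNGATG, a part of the X box, where present.
RT1-Da, chr20:4515326-4515385, + strand: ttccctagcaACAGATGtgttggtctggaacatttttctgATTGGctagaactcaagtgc
RT1-Db1, chr20:4560223-4560282, - strand: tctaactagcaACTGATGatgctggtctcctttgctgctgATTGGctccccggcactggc
RT1-Bb, chr20:4604160-4604219, - strand: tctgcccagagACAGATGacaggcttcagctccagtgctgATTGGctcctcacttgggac
RT1-DMa, chr20:4712380-4712439, - strand: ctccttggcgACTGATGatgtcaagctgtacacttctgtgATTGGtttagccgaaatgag
RT1-DOb, chr20:4627587-4627646, - strand: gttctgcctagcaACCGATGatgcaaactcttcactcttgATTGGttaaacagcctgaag
RT1-Ba, chr20:4576974-4577033, + strand: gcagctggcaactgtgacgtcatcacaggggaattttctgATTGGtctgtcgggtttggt
RT1-DOa, chr20:4758511-4758570, - strand: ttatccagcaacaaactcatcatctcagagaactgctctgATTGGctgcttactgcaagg

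In 5 of the 8 promoters ACNGATG was followed on the same strand by ATTGG, with 23 bases between them in RT1-Da and RT1-DMa, 22 in RT1-Db1 and RT1-Bb and 20 in RT1-DOb. RT1-Ba and RT1-DOa held ATTGG without ACNGATG. The Cd74 promoter held CCAAT 1 time, read on the gene's strand, and no ACNGATG. Searched on both strands, CCAAT was in all 8 promoters and in 37.5% of 33469 promoters, and ACNGATG in 5 of the 8 and in 10.2%. The spaced pair, with 10 to 30 bases between, was in 0.158% of the 33469, and this spacing was chosen after the sequences were seen. The motifs overlap no bases of each other in these windows. Such letters describe the sequence and do not show binding.

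Transcripts of the 4 classical chains, of Cd74 and of Ciita were several-fold more abundant in every graft than in any control vein. In counts scaled to library size (CPM, with TMM factors), Cd74 stood at 119 ± 45.8 CPM (SD, n = 4) in controls and 997 ± 369 CPM in grafts. Ciita stood at 7.91 ± 3.7 CPM in controls and 75.2 ± 41.5 CPM in grafts. Of the 10 genes, 8 had enough reads to be tested and 7 of these rose, with an FDR under 0.05. FDR stands here for the Benjamini-Hochberg adjusted p of the quasi-likelihood test of edgeR over all genes. The same test found 3250 of 15464 genes higher in the grafts, or 21.0% of all genes tested. Every graft lay above every control for 7 of the 8 tested genes, for 20.8% of all genes tested, and also for the untested RT1-DMb. The median log2 fold change of the 8 was 3.14, beside 0.01 over all genes tested. RT1-DOa did not pass, and RT1-DMa and RT1-DMb had too few counts to be tested. 6 of the genes exceeded the filter's level in all 8 libraries, while RT1-DOa and RT1-DOb passed the filter through the grafts, which favours a difference. Together the 10 genes took 0.0213% ± 0.00755 (SD, n = 4) of all counts in controls and 0.244% ± 0.116 in grafts.

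**Figure D1:**
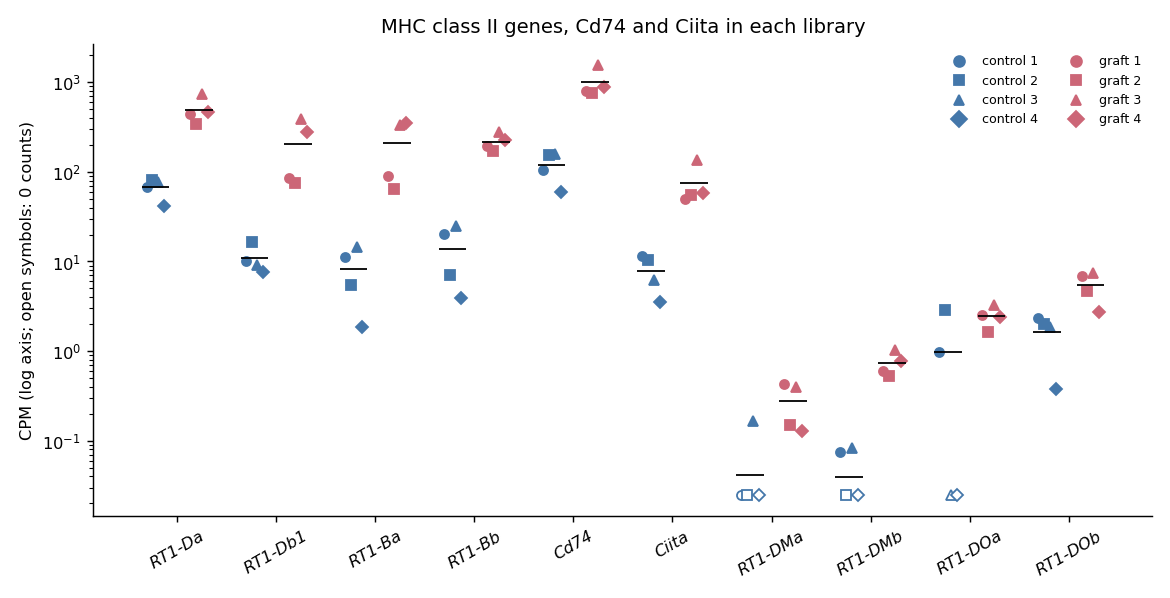
Level of each gene in each library in CPM on a log axis, with controls in blue, grafts in red, 1 symbol shape per library number, and a bar at the group mean. Open symbols at the bottom are libraries with 0 counts. For the first 6 genes on the axis every graft lies above every control, while RT1-DMa and RT1-DOa overlap.

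Library totals were 5981520 counts in control 4, up to 14267490 in the other controls, and 10533451 to 16061189 in grafts, so that 3 counts correspond to 0.187 to 0.502 CPM. The extraction text of the labels names prefrontal cortex, whereas the titles and tissue labels name veins. Myh11, the smooth muscle myosin, stood at 8090 ± 1610 CPM (SD, n = 4) in controls, and the neuronal markers Snap25, Rbfox3, Slc17a7 and Gad1 each averaged at most 0.415 CPM in either group, with Neurod6 at 0 in all libraries. Of the other 3 of the 8 brain markers, the synaptic gene Syt1 averaged 1.98 CPM in controls and 1.21 CPM in grafts, and the astrocyte gene Gfap 1.83 and 1.89 CPM. Mbp, a myelin protein of brain and peripheral nerve, was higher, at 647 and 592 CPM in controls 3 and 4. Those controls also had the highest summed adipocyte markers, 1900 and 2090 CPM against 340 and 629 CPM in controls 1 and 2. With controls 3 and 4 left out, 9 of the genes were tested and 7 rose: the 4 classical chains, Cd74, Ciita and RT1-DMb.

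The RT1-D pair is the rat counterpart of HLA-DR. RT1-Da, its alpha chain, measured 68.5, 81.5, 77.0 and 41.1 CPM across controls 1 to 4 and 443, 341, 739 and 461 CPM across grafts 1 to 4. The lowest graft was 4.19 times the highest control, and graft 3 was the highest of the 4. Its log2 fold change was 2.88 ± 0.29 (SE; edgeR FDR = 7.9e-05). RT1-Db1, the beta chain, measured 10.2, 16.5, 9.12 and 7.65 CPM across controls 1 to 4 and 85.1, 74.2, 393 and 276 CPM across grafts 1 to 4. The groups did not overlap, but grafts 3 and 4 were both more than 3 times grafts 1 and 2. The log2 fold change was 4.24 ± 0.58 (SE; edgeR FDR = 0.000455), and 2.89 with grafts 3 and 4 left out.

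The RT1-B pair is the counterpart of HLA-DQ. RT1-Ba, its alpha chain and the gene with the highest fold change of the 8 tested, measured 11.2, 5.48, 14.6 and 1.87 CPM across controls 1 to 4 and 89.7, 63.8, 337 and 352 CPM across grafts 1 to 4. As with RT1-Db1, grafts 3 and 4 lay above grafts 1 and 2, and every graft lay above every control. The log2 fold change was 4.61 ± 0.73 (SE; edgeR FDR = 0.000969), and 3.19 with grafts 3 and 4 left out. RT1-Bb, the beta chain, measured 20.1, 7.07, 24.7 and 3.92 CPM across controls 1 to 4 and 192, 173, 278 and 228 CPM across grafts 1 to 4. Its grafts were close together, with the highest 1.61 times the lowest, whereas its controls spread over a factor of 6.3. The log2 fold change was 3.93 ± 0.50 (SE; edgeR FDR = 0.000292).

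The invariant chain Cd74 measured 106, 154, 157 and 59.9 CPM across controls 1 to 4 and 792, 761, 1540 and 891 CPM across grafts 1 to 4. Graft 3 stood apart from the other grafts, which were close together. The log2 fold change was 3.06 ± 0.35 (SE; edgeR FDR = 0.000172), and 2.79 without graft 3. Ciita measured 11.5, 10.4, 6.19 and 3.55 CPM across controls 1 to 4 and 49.6, 55.7, 137 and 58.2 CPM across grafts 1 to 4. Here too graft 3 was the highest by far, and the lowest graft was 4.3 times the highest control. The log2 fold change was 3.21 ± 0.44 (SE; edgeR FDR = 0.000414), and 2.77 without graft 3.

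Few reads came from the chains of DO in both groups. RT1-DOb, the beta chain, measured 2.32, 1.99, 1.84 and 0.373 CPM across controls 1 to 4 and 6.86, 4.66, 7.52 and 2.7 CPM across grafts 1 to 4. The groups did not overlap, by a narrow margin: graft 4 was 1.16 times control 1. Its log2 fold change was 1.66 ± 0.47 (SE; edgeR FDR = 0.0181), but it missed the threshold with controls 3 and 4 left out (edgeR FDR = 0.0655). RT1-DOa, the alpha chain, had 13, 29, 0 and 0 counts across controls 1 to 4 and 42, 22, 41 and 37 across grafts 1 to 4. The groups overlapped, since control 2, at 2.89 CPM, lay above 3 of the grafts. Its log2 fold change was 1.28 ± 0.90 (SE; edgeR FDR = 0.28), while limma voom called it (2.86, adjusted p = 0.0403). The log2 fold change of edgeR depended on which controls were kept. It was 2.65 without control 2 (edgeR FDR = 0.0518) and 0.84 without control 3. With controls 3 and 4 left out it was 0.37 (edgeR FDR = 0.628).

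The chains of DM had at most 13 counts in any library. RT1-DMb had 1, 0, 1 and 0 counts across controls 1 to 4 and 10, 7, 13 and 12 across grafts 1 to 4, so that every graft was above every control. The ratio of its summed counts, scaled for library size, was 14.8 (exact 95% counting interval 3.84 to 126). RT1-DMa had 2 counts, both in control 3, against 7, 2, 5 and 2 counts in grafts 1 to 4, a ratio of 5.63 (exact 95% counting interval 1.32 to 50.4). These intervals cover counting error only and not the spread between veins. With no filter on low counts, edgeR called RT1-DMb (log2 fold change 3.70 ± 0.84, SE; adjusted p = 0.00622) and not RT1-DMa (adjusted p = 0.156).

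The grafts differed among themselves in a pattern that many of these genes shared. Graft 3 was the highest graft for 8 of the 10 genes, with RT1-Ba highest in graft 4 and RT1-DMa in graft 1. Graft 2 was the lowest for 7. Summed over the 10 genes, the share of all counts was 0.17%, 0.154%, 0.409% and 0.243% in grafts 1 to 4. The highest graft exceeded the lowest 5.52 times for RT1-Ba and 5.29 times for RT1-Db1, beside a median of 1.37 times over the 11609 tested genes whose graft mean reached 5 CPM. Of those genes, 1.41% had a range at least as wide as RT1-Ba and 1.52% one at least as wide as RT1-Db1. The range of RT1-Bb was met or exceeded by 26.7% of them and that of Cd74 by 12%.

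Because the paired chains form 1 molecule, their ratio within a library was examined, which does not depend on library scaling. The counts of RT1-Da were 6.7, 4.92, 8.41 and 5.31 times those of RT1-Db1 in the controls, from 1 to 4, and 5.2, 4.59, 1.88 and 1.67 times in the grafts. Graft 1 lay within the range of the controls, graft 2 just below it, and grafts 3 and 4 far below it. On the log2 scale the ratio was 2.63 ± 0.35 (SD, n = 4) in controls and 1.56 ± 0.85 in grafts (two-sided exact permutation p = 0.0571, adjusted p = 0.4 over 16 ratios). The counts of RT1-Ba were 0.561, 0.776, 0.591 and 0.488 times those of RT1-Bb in the controls, from 1 to 4, and 0.468, 0.37, 1.21 and 1.54 times in the grafts. Grafts 3 and 4 were above all controls and grafts 1 and 2 below them, with log2 means of -0.75 ± 0.28 and -0.41 ± 1.01 (SD, n = 4; exact permutation p = 0.543, adjusted p = 0.579).

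The ratio of Cd74 to RT1-Da varied little. The counts of Cd74 were 1.46 to 2.04 times those of RT1-Da in the controls and 1.79 to 2.23 times in the grafts. The log2 ratio was 0.78 ± 0.23 (SD, n = 4) in controls and 1.00 ± 0.14 in grafts (exact permutation p = 0.171, adjusted p = 0.4). The log2 ratio of Ciita to Cd74 was -3.95 ± 0.60 in controls and -3.80 ± 0.23 in grafts (SD, n = 4; exact permutation p = 0.714). Of the 16 ratios, 0 passed by the exact permutation test after adjustment and 0 had an unadjusted p under 0.05, where 0.0286 is the smallest p that 4 against 4 libraries allow. A ratio at that smallest p would pass the adjustment over 16 ratios only if most of the others were about as low. A ratio that missed the threshold is not shown to be equal in the groups.

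**Figure D2:**
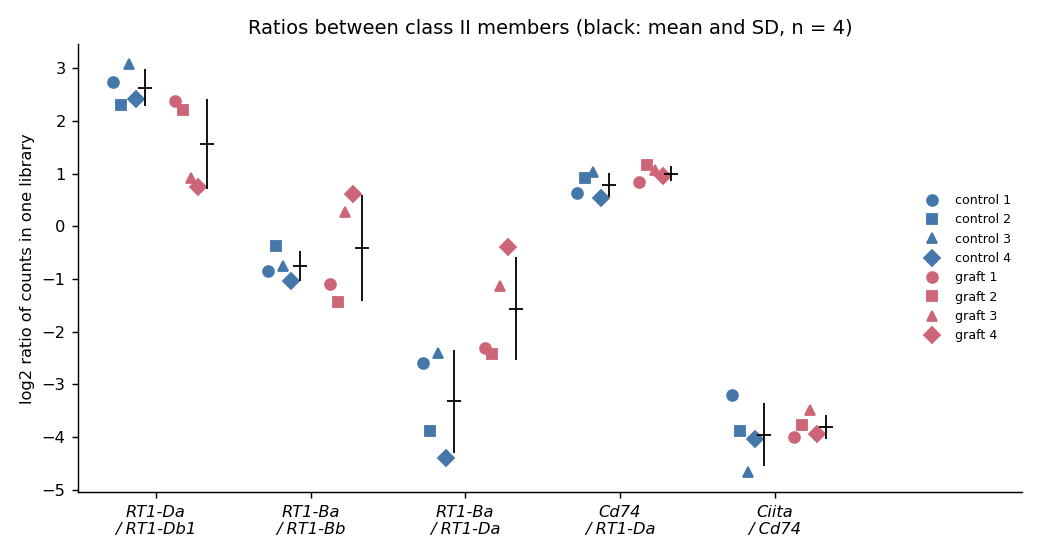
Log2 ratio of the counts of pairs of class II genes within each library, with controls in blue, grafts in red, and the mean and SD of each group (n = 4) in black. For RT1-Da over RT1-Db1 grafts 3 and 4 lie at 0.91 and 0.74, below grafts 1 and 2 at 2.38 and 2.20, while Cd74 over RT1-Da runs from 0.54 to 1.16 over the 8 libraries.

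Most macrophage and dendritic cell markers moved with these genes. In bulk tissue, more cells of a type and more RNA per cell cannot be told apart. Of 10 macrophage markers 8 rose, beside 21.0% of all genes tested. The 10 summed to 272 to 456 CPM in controls and 1180 to 1920 CPM in grafts, and none was at 0 in a whole group. Mertk and Cd163 did not pass, at log2 fold changes of 0.20 and -0.57. Of 9 dendritic cell markers 7 rose, from summed levels of 94.8 to 119 CPM in controls to 340 to 502 CPM in grafts. None was at 0 in a whole group. Batf3 (0.50) did not pass, nor did Zbtb46 (-0.33), which was lower in every graft than in any control. Xcr1, Clec9a and Ccr7 were under the filter's level in some controls and passed it through the grafts, which favours a difference. Ptprc, the common leukocyte antigen CD45, stood at 84.2 ± 41.2 CPM (SD, n = 4) in controls and 492 ± 104 CPM in grafts. B cell markers did not move with them: of 7, 3 were tested, 0 rose and 1, the complement receptor Cr2, fell, with sums of 2.8 to 37.8 CPM in controls and 2.55 to 6.4 CPM in grafts. Among the B cell markers Cd79a was at 0 in all libraries. Of 8 endothelial markers 4 fell and 0 rose, beside 21.3% and 21.0% of all genes tested. Smooth muscle and adipocyte markers were lower in the grafts, while fibroblast markers were mixed. Of 5 fibroblast markers 1, Lum, rose (log2 fold change 1.49, edgeR FDR = 0.00744), 2 fell and 2 did not pass. All 6 vein smooth muscle markers fell, from summed levels of 11300 to 18600 CPM in controls to 1610 to 3210 CPM in grafts, with Myh11 at 672 ± 215 CPM (SD, n = 4) in grafts. All 6 adipocyte markers fell too, with sums of 340 to 2090 CPM in controls and 84.8 to 138 CPM in grafts. The part of these cell types in the class II levels was not tested.

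RT1-Da, Cd74 and Ciita were set against leukocyte markers in the same library, and no ratio had an exact permutation p under 0.05 before adjustment. After adjustment the threshold was nearly out of reach for any single ratio, as said above. RT1-Db1, RT1-Ba and RT1-Bb, which had larger fold changes, were not set against these markers. The counts of Cd74 were 1.74, 1.17, 1.51 and 1.49 times those of Ptprc in the controls, from 1 to 4, and 2.35, 1.42, 2.79 and 1.64 times in the grafts. The groups overlapped, and the log2 ratio was 0.55 ± 0.24 in controls and 0.98 ± 0.45 in grafts (SD, n = 4; exact permutation p = 0.2, adjusted p = 0.4). Against Csf1r, the macrophage growth factor receptor, the log2 ratio of Cd74 was 0.50 ± 0.44 in controls and 1.13 ± 0.56 in grafts (SD, n = 4; exact permutation p = 0.143). Against Cd68, a lysosomal protein of macrophages, it was lower in grafts, at 2.85 ± 0.70 beside 3.40 ± 0.64 in controls (SD, n = 4; exact permutation p = 0.286). RT1-Da over Ptprc stood at -0.23 ± 0.40 in controls and -0.02 ± 0.52 in grafts (SD, n = 4; exact permutation p = 0.514). Ciita over Ptprc stood at -3.40 ± 0.71 and -2.82 ± 0.58 (SD, n = 4; exact permutation p = 0.257). Within the grafts, Cd74 over Ptprc was highest in graft 3, at 2.79 times. Its summed macrophage markers, at 1610 CPM, were not the highest (1920 CPM in graft 4). Its summed dendritic cell markers were the highest, at 502 CPM, with graft 4 at 480 CPM and Cd74 there at 1.64 times Ptprc. Single markers differed: Flt3, Xcr1, Clec9a, Batf3 and Fscn1 were highest in graft 3. Itgax and Ccr7 were highest in graft 2, Zbtb46 in graft 1 and Clec10a in graft 4. Flt3 stood at 21.4, 17.8, 45.8 and 23.4 CPM in grafts 1 to 4. The part of either cell type in this ratio was not tested.

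**Figure D3:**
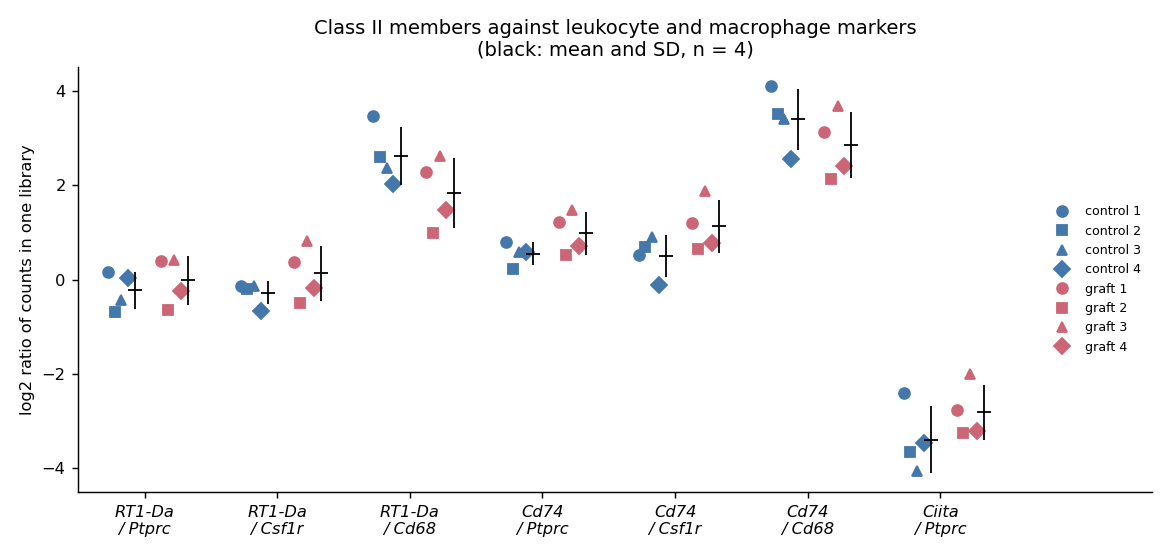
Log2 ratio of the counts of RT1-Da, Cd74 and Ciita to those of Ptprc, Csf1r and Cd68 in each library, with controls in blue, grafts in red, and the mean and SD of each group (n = 4) in black. The groups overlap for each of the 7 ratios, with Cd74 over Ptprc at 0.23 to 0.80 in controls and 0.51 to 1.48 in grafts.

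Genes around the class II pathway were read from 6 lists with 41 genes, of which 40 are in the table under a current or older symbol and 36 were tested. Of these, 21 rose and 2 fell, beside 21.0% and 21.3% of all genes tested. Of 6 tested factors that bind class II promoters, 0 rose and 2 fell, with a median log2 fold change of -0.24. With only 6 genes, these counts lie not far from the shares over all genes. Creb1, which binds next to the X box, stood at 177 ± 14.5 CPM (SD, n = 4) in controls and 97.6 ± 9.94 CPM in grafts, with a change of -0.86 ± 0.12 on the log2 scale (edgeR FDR = 0.00041). Nfyb, a subunit of the Y box factor NF-Y, fell by 0.88 ± 0.13 in log2 units (edgeR FDR = 0.00057). Rfx5, of the X box complex, stood at 0.22 ± 0.12 (edgeR FDR = 0.15) and passed with library totals alone (0.45, edgeR FDR = 0.0252).

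Of 7 tested genes of interferon gamma signalling, 3 rose, 0 fell and 4 missed the threshold (median 0.46). Among all genes tested, 21.0% rose and 21.3% fell, and with only 7 genes these counts lie not far from those shares. Irf8, an interferon regulatory factor of myeloid and dendritic cells, measured 17.5, 23.8, 16.5 and 14.2 CPM across controls 1 to 4 and 103, 113, 279 and 124 CPM across grafts 1 to 4. As for Ciita, graft 3 was more than 2 times each of the others, and the log2 fold change was 3.10 ± 0.35 (SE; edgeR FDR = 0.000141). Ifngr2, a receptor subunit for interferon gamma, rose by 1.54 ± 0.16 (edgeR FDR = 8.97e-05) and Jak2, its kinase, by 0.74 ± 0.16 (edgeR FDR = 0.00416). Irf1, which carries the signal to the Ciita promoter, stood at 0.46 ± 0.25 (edgeR FDR = 0.162). Ifng, the ligand, had 0 counts in the controls and 3, 1, 3 and 0 counts in grafts 1 to 4, at or under the 3-count floor in each library.

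Of 7 proteases and enzymes that cleave the invariant chain or prepare antigens, 5 rose, 0 fell and 2 missed the threshold (median 1.41). Among all genes tested, 21.0% rose and 21.3% fell. Ctss, cathepsin S, the main protease for late invariant chain cleavage, stood at 30.5 ± 8.96 CPM (SD, n = 4) in controls and 209 ± 49.7 CPM in grafts (log2 fold change 2.77 ± 0.25, SE; edgeR FDR = 4.99e-05). Ifi30, a reductase that opens disulphide bonds of antigens, rose by 1.97 ± 0.19 (edgeR FDR = 7.19e-05), and Lgmn, the asparagine endopeptidase legumain, by 1.95 ± 0.21 (edgeR FDR = 0.000105). Ctsl and Sppl2a did not pass, at -0.23 ± 0.20 (edgeR FDR = 0.389) and -0.22 ± 0.15 (edgeR FDR = 0.266). Both genes act on the invariant chain, Ctsl in the thymus of mice and Sppl2a on its membrane stub.

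Of 3 genes that set the turnover of surface class II, 2 rose, beside 21.0% of all genes tested. Marchf1, listed under its older symbol and known as the ubiquitin ligase that removes class II from the surface, went from 3.35 ± 1.81 to 23.4 ± 6.77 CPM (SD, n = 4; edgeR FDR = 0.000376). Cd83, which opposes it, went from 6.88 ± 1.57 to 33.9 ± 7.71 CPM (SD, n = 4; edgeR FDR = 9.31e-05). Marchf8, a related ligase of broader expression, stood at 0.10 ± 0.22 and did not pass (edgeR FDR = 0.749).

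Of 5 tested costimulators, 3 rose, beside 21.0% of all genes tested, and 2 did not pass. Cd86 and Cd80, the ligands of CD28, had log2 fold changes of 3.43 ± 0.44 and 3.30 ± 0.51 (SE; FDR by edgeR 0.000312 and 0.000824), from 1.07 and 1.11 CPM to 12.3 and 11.9 CPM. Control 3 had the highest Cd86 of the controls, 2.43 CPM, and without it the log2 fold change was 4.22. Icam1 rose by 0.54 ± 0.16 (edgeR FDR = 0.0231), and missed the threshold without control 3, control 4, graft 2 or graft 4 (edgeR FDR of 0.0662, 0.0617, 0.0706 and 0.0507). It also missed with controls 3 and 4 left out (0.34, edgeR FDR = 0.181) and with grafts 3 and 4 left out (0.63, edgeR FDR = 0.0635). Cd40 stood at 0.46 ± 0.35 (edgeR FDR = 0.314). On the side of the helper T cell, 8 of 8 tested receptor genes rose, beside 21.0% of all genes tested, with a median of 2.66. Cd40lg had too few counts to be tested. Cd86, Cd80, Lag3, Cd3e, Cd3d, Cd3g and Ctla4 were under the filter's level in some controls. They passed the filter through the grafts, which favours a difference. With grafts 3 and 4 left out Lag3, Cd3d, Cd3g and Ctla4 missed the threshold (edgeR FDR of 0.119, 0.0935, 0.192 and 0.0629), as did Lag3 and Ctla4 with controls 3 and 4 left out (0.0984 and 0.0574). Single controls moved several of these values: without control 1 Lag3, Cd3e and Cd3d stood at 2.86, 3.30 and 3.80, against 1.95, 2.68 and 2.76 with all libraries, and without control 2 Cd3g and Ctla4 stood at 3.69 and 5.17, against 2.64 and 3.51. Cd4, the coreceptor that binds class II and that rat macrophages also carry, rose by 2.55 ± 0.19 (edgeR FDR = 2.62e-05), and Icos by 3.00 ± 0.28 (edgeR FDR = 5.48e-05). Cd3g, a chain of the T cell receptor complex, at 0.654 ± 0.853 CPM in controls and 4.38 ± 1.6 CPM in grafts (SD, n = 4), passed with an edgeR FDR of 0.0288 and missed without control 4 (0.0523), graft 3 (0.0679) or graft 4 (0.0647).

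**Figure D4:**
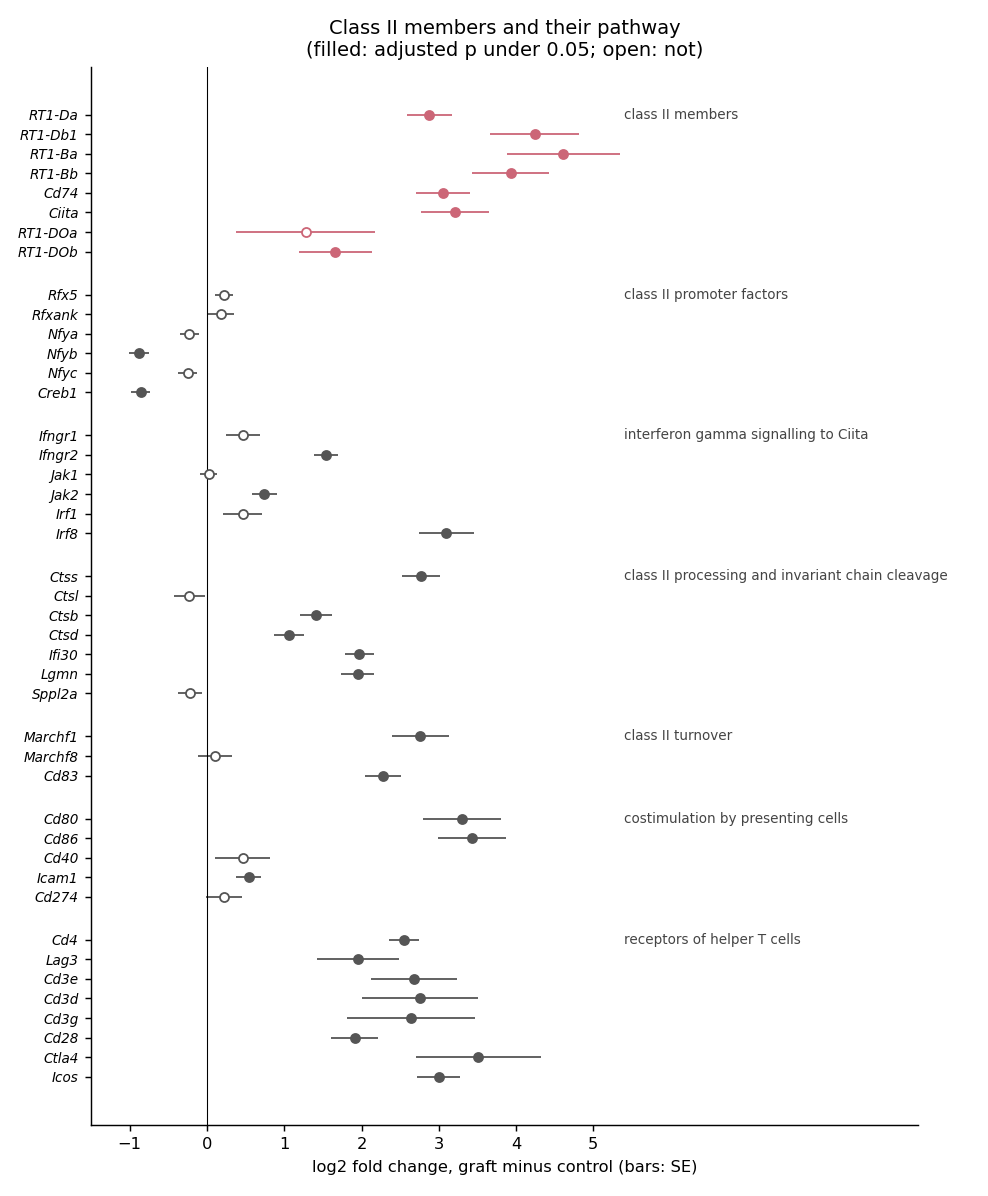
Log2 fold change of grafts over controls with its SE for the 8 class II genes tested (red) and 35 of the 36 pathway genes (grey), by list. Filled points passed the edgeR test at an adjusted p under 0.05 and open points did not: the classical chains, Cd74 and Ciita lie between 2.88 and 4.61, while the factors of class II promoters lie between -0.88 and 0.22.

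The genes with the profile most like that of Cd74 were sought among 9936 tested genes with a current symbol and a mean of at least 5 CPM, by the root mean square difference of centred log2 CPM over the 8 libraries. The closest were Wdfy4 (difference 0.224), Rac2 (0.238), Itgal (0.262), Sla (0.263), Irf5 (0.276) and Pstpip1 (0.282). Wdfy4 is a gene of dendritic cells, Rac2 a small GTPase of blood cells and Itgal the alpha chain of the integrin LFA-1. Among the class II genes themselves, RT1-Da was closer to Cd74 (0.198) than any of these, Ciita stood at 0.393, and RT1-Ba (1.11) and RT1-DOa (1.27) were the farthest. For Ciita the closest were P2ry6 (0.24), Fgd2 (0.269), Chi3l1 (0.289), Coro1a (0.305), Stat4 (0.315) and Lrp8 (0.328), each with its highest level in graft 3. Coro1a, an actin regulator of leukocytes, stood at 66.6, 105, 152 and 84.7 CPM in grafts 1 to 4. The 12 genes had log2 fold changes of 2.84 to 3.40, so the likeness includes the difference between the groups.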

How the data were processed

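The labels' protocols describe Illumina sequencing of total RNA from 8 veins. The submitters' processing notes name HISAT2 2.0.4 and the build Rnor_6.0. Which counter and annotation were used, and whether strand was, is not given in the sources used here. Raw counts for each gene were deposited by the authors, 1 column per sample, and their whole numbers show no normalization. RT1 genes are polymorphic and similar to each other, so reads may have been split, dropped or misassigned in an outbred strain. Reads of antisense genes are not told apart.

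The main test was that of edgeR 4.0.16 in R 4.3.3 (filterByExpr with a minimum count of 10, TMM factors, glmQLFit and glmQLFTest, Benjamini-Hochberg over 15464 genes, threshold 0.05). The SE is the absolute log2 fold change over the square root of F. Ratios added 0.5 to each count and used exact two-sided permutation tests. DESeq2 1.42.0 and limma 3.58.1 were alternatives, with other scalings, filters, a replicate block and libraries left out. The procedure was tested on simulated counts. Intervals and floors cover counting error only.

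Same-numbered libraries correlated by -0.07, 0.18, 0.07 and 0.05 in their deviations from the group means, so the title numbers were not taken as pairs. No pair of libraries of a group matched within counting error, so each counts as 1 sample. The source names number the grafts differently from the titles, so which graft and control came from the same animal is not known, and p-values measure the spread between these samples. No batch is given. All 10 genes are named, and 2 genes of the lists are counted but not reported singly here. Of each pathway list, the gene with the smallest p in each direction is named, and further list genes were chosen after their values were seen. Members and lists were chosen with earlier results of these data known. Gene names matched RefSeq symbols of GRCr8, and levels were not compared between genes, since transcript lengths were not used here; ratios of counts of different genes were compared only across libraries.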

Additional observations from a re-analysis of the deposited data

Results flagged for a closer look

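Within groups of 4, a library was flagged when its gap to the nearest other library, over the group's range, passed Dixon's 95% critical value. Of 52 groups examined 4 were flagged, and chance flags about 1 in 20. Cd74 in graft 3 stood at 1540 CPM, against 761 to 891 CPM in the other grafts. Ciita in graft 3 stood at 137 CPM, against 49.6 to 58.2 CPM in the others. Without graft 3 both genes were still called by edgeR, at log2 fold changes of 2.79 (adjusted p = 0.000308) and 2.77 (adjusted p = 0.000498). RT1-DMa in control 3 stood at 0.167 CPM, which is 2 counts, against 0 in the other controls. The log2 ratio of RT1-Da to Csf1r in control 4 was -0.66, against -0.21 to -0.13 in the others. Control 4 also had the fewest counts, 5981520, and the lowest Ptprc, 40.1 CPM. The part of depth or cell makeup in these values was not tested.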

How the results depend on the processing

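The count of 7 class II genes that rose held in 15 of 18 alternatives (with controls 3 and 4 left out RT1-DMb took the place of RT1-DOb). It was 8 with no low-count filter or with limma voom, and 6 of 6 tested at a minimum count of 50. RT1-Da, RT1-Db1, RT1-Ba, RT1-Bb, Cd74 and Ciita stayed past the threshold in all 18. Library totals alone, in place of TMM, shifted the median over all genes from 0.01 to 0.23 (log2) and turned 3250 rises and 3288 falls (49.7% rises) into 4558 and 2164 (67.8%); the 7 class II genes rose under it too. Replicate block: with the title number as a term, 7 class II genes and 20 pathway genes rose and 2 fell, and only Cd3g lost its call (adjusted p = 0.0632); same-numbered libraries did not all resemble each other most. Pathway rises ran from 19 to 22 with 1 library left out, and were 24 with library totals alone, 17 of 32 tested at a minimum count of 50, 18 with controls 3 and 4 left out and 16 with grafts 3 and 4 left out, with 2 falls each time. Ratios past the threshold numbered 0 throughout. However, exact tests of 4 against 3 libraries allow no p below 0.0571, and sign flips of 4 pairs none below 0.125. No ratio could pass in those fits, so their 0 was set in advance and shows no stability. Changes of sign were limited to values that had not passed: Nfya 0.01 and Sppl2a 0.00 with library totals alone, Jak1 -0.01 without control 1, without graft 4 or with grafts 3 and 4 left out and 0.00 with controls 3 and 4 left out, and Marchf8 -0.04 without control 3 and -0.16 with controls 3 and 4 left out. With 1 library left out at a time Jak1 ran from -0.01 to 0.08 and Marchf8 from -0.04 to 0.27. Among ratios, RT1-DOa over RT1-DOb went to -0.11 and RT1-DOb over RT1-DMb to 0.46 with 5 added to each count. Without control 3, RT1-DOa over RT1-DOb went to -0.06 and Ciita over Cd74 to -0.09. Without graft 4, RT1-Ba over RT1-Bb went to 0.00. Over the fits with 1 library left out these ratio differences ran from -0.06 to 1.95, from -0.09 to 0.40 and from 0.00 to 0.68. The cause was not tested. Leaving out controls 3 and 4, or grafts 3 and 4, was chosen after seeing the data. Low counts limit statements on the DM and DO chains, and the part of depth or of read assignment in these counts was not tested.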

Other observations

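The spaced pair of ACNGATG and ATTGG was also in the promoters of 47 other genes, of which 16 were tested. Of these 16, 5 rose and 3 fell by edgeR, beside 21.0% and 21.3% of all genes tested. The 5 that rose were Mpv17l2, Tmem14c and the MHC class I genes RT1-CE3, RT1-CE5 and RT1-CE10, with log2 fold changes of 1.16, 0.73, 2.16, 1.42 and 2.58.

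Other RT1 rows, chosen after their values were seen, also differed between grafts. RT1-CE10, a class I gene, had 216, 223, 749 and 1203 counts in grafts 1 to 4, and RT1-CE1 had 59, 30, 407 and 476. RT1-Db2, a second beta chain row similar to RT1-Db1, had 0 counts in all controls and 7, 8, 34 and 6 counts in grafts 1 to 4. The class II rows RT1-Ha and RT1-Hb-ps1 reached at most 3 counts in any library.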
